A study of Mus musculus with 8 samples.

Results

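The genes described here act in nitric oxide signalling and were measured in mouse white adipose tissue after an injection of endostatin. They are Nos1ap, Nos1, Nos2, Nos3, Prkg1 and Pde5a. These are 6 of the 37046 features that the libraries measured. Nos1ap was chosen for its difference between endostatin and control in these same libraries. There it ranked 3 by unadjusted p among genes with a higher level after endostatin, counting those whose average was 1 CPM or more. CPM are counts scaled to the library total and to a normalisation factor of each library (trimmed mean of M values, TMM). The other 5 were listed with it as genes of the pathway. The comparison of endostatin with control is therefore given for all 6 as a description, with no test of that difference. Whether it differed between the batches was tested, but on the same libraries and groups, so those p-values are descriptions too. Just above Nos1ap in that ranking stood St6galnac5, with a log2 fold change of 1.01 ± 0.21 (SE), and just below it Ugt1a1, with 1.66 ± 0.37. Nos1ap itself had 0.69 ± 0.15.

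RNA was sequenced from 8 samples of white fat of wild-type mice, all female and of the inbred strain C57BL/6J. The endostatin group (4 libraries) received 50 mg/kg endostatin, a fragment of collagen XVIII known as an inhibitor of vessel growth, through the tail vein. The control group (4 libraries) received phosphate-buffered saline (PBS). Tissue of both groups was taken 2 h later, after food had been withheld in between, and each group had 2 libraries in each of the 2 batches named by the labels. Which animal gave which library is not stated, so each p-value reflects variation among libraries that could be technical in origin. The labels give endostatin 4 the same read-file stub as endostatin 3, although the values of these libraries differ.

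The libraries held 17197721 to 23786594 estimated counts in the endostatin group and 15826783 to 19221886 in the control group. The labels call the tissue epididymal although the mice are female; all 5 epididymis markers had 0 counts in all 8 libraries, while 8 adipocyte markers summed to 38700 to 47000 TPM (transcript abundance scaled for length and library total) in endostatin libraries and 26300 to 52300 TPM in control libraries. Endostatin 4 and control 3 stood apart on the first principal component (48.8 for endostatin 4 and 71.5 for control 3, against -34 to -6.6 in the remaining libraries). The 6 oviduct and uterus markers reached 348 TPM in endostatin 4, of which Ltf gave 298 TPM, and 411 TPM in control 3. In the remaining libraries they summed to 6.89 to 26 TPM after endostatin and to 4.49 to 10.6 TPM after PBS. Hepatocyte markers summed to 266, 396, 20.9 and 754 TPM in endostatin 1 to 4 and to 122, 78.1, 17.2 and 27 TPM in control 1 to 4.

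Nitric oxide is a short-lived gas made from arginine by the nitric oxide synthases, which in mammals are the neuronal (Nos1), inducible (Nos2) and endothelial (Nos3) enzymes. It diffuses into neighbouring cells and activates soluble guanylate cyclase, and the cyclic GMP that results switches on the kinase encoded by Prkg1 and is broken down by phosphodiesterases such as the product of Pde5a. Nos1ap, also called Capon, encodes an adaptor that binds the neuronal synthase and links it to partners such as the small G protein Rasd1. In fat, nitric oxide is known for widening blood vessels, and cyclic GMP for roles in lipolysis and adipocyte differentiation.

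Nos1ap and Prkg1 each have a pair of RefSeq starts far apart, and these windows are printed because the counts below are divided between transcripts with these starts. Each window is RefSeq sequence of build GRCm38.p6, 5′ to 3′ on the gene's own strand, from 250 bases before a start to 50 after it. Windows were matched for 4 of the 6 members. Capitals mark the GC box GGGCGG and the AP-1 motif TGANTCA, both searched on both strands, with no match of one overlapping the other. The motifs were chosen after the sequences had been read, and AP-1 because its letters had been seen in the internal Nos1ap window. The first Nos1ap window (chr1:170589800-170590099, minus strand) lies at the start of Nos1ap-201, Nos1ap-202 and Nos1ap-207, and the second (chr1:170557061-170557360, minus strand) at the start of Nos1ap-203, 32739 bases further into the gene. The Prkg1 windows (chr19:31764984-31765283 and chr19:31664321-31664620, minus strand) lie at the starts of Prkg1-201 and Prkg1-202, which are 100663 bases apart.
Nos1ap upstream start: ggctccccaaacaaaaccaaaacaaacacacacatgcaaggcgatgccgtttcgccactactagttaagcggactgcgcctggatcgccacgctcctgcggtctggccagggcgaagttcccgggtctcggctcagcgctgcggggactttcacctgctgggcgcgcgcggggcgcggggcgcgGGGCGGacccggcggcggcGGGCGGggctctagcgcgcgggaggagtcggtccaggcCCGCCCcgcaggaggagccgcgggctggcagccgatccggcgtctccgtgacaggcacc
Nos1ap internal start: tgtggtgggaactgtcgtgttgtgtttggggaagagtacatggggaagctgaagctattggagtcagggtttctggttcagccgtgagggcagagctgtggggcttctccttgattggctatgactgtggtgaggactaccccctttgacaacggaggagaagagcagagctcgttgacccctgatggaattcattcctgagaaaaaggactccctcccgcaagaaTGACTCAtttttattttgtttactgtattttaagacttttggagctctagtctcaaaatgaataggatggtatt
Prkg1 upstream start: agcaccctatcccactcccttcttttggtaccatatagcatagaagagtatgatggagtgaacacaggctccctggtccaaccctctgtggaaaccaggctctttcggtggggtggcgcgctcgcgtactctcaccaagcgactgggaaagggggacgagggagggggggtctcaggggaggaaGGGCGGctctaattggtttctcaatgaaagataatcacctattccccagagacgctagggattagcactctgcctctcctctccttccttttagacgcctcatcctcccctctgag
Prkg1 internal start: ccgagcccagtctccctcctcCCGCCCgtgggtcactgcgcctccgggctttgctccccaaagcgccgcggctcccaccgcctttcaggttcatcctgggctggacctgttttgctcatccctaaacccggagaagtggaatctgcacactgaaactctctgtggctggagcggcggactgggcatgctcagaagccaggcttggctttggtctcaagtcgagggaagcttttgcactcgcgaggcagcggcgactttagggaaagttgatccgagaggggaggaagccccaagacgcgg

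The upstream Nos1ap window held 3 GC boxes, 39 CG dinucleotides and a GC content of 71.7%. The internal window held no GC box, 5 CG dinucleotides, 47% GC and 1 AP-1 match. Each Prkg1 window held 1 GC box, with 10 CG dinucleotides at the upstream start and 20 at the internal one. Among 32851 mouse promoter windows of the same length, 35.7% held a GC box, 7.81% held an AP-1 match, and the median number of CG dinucleotides was 7. These matches describe the letters of the windows only.

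In TMM-normalised CPM, Nos1ap was higher in every endostatin library than in every control library. Its level was 8.95, 7.8, 12.2 and 10.7 CPM in endostatin 1 to 4, against 5.65, 4.37, 7.73 and 7 CPM in control 1 to 4. The gap between the groups was narrow across batches, with endostatin 2 just above control 3. That order rested on the TMM factors. Scaled to the library total alone, control 3 (140 of 15826783 counts) was above endostatin 2 (174 of 23272428), so the groups overlapped. The gap in CPM was wider within each batch. The lower endostatin library stood at 7.8 CPM against 5.65 CPM for the higher control library of batch 1, and at 10.7 against 7.73 CPM in batch 2. The means were 9.9 ± 1.92 CPM in endostatin libraries and 6.19 ± 1.49 CPM in control libraries (SD, n = 4 each), a log2 fold change of 0.69 ± 0.15 (SE) with a 95% interval from 0.35 to 1.03. Groups of 4 that did not overlap, with endostatin higher, were found for 0.942% of the 15184 genes tested, and with endostatin lower for 0.698%; Nos1ap was chosen for this difference, so nothing is read from its being among them.

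Length-scaled abundance showed the same order of groups for Nos1ap. It was 14.4, 13.1, 19.8 and 20.7 TPM in endostatin 1 to 4, against 8.16, 5.57, 12.9 and 11 TPM in control 1 to 4. Endostatin 4, which had the highest TPM, was second to endostatin 3 in CPM. The hepatocyte marker sums given above were higher in endostatin 1, 2 and 4 than in every control library, whereas that of endostatin 3, 20.9 TPM, lay within the control range; their part in the Nos1ap difference was not tested. The 6 macrophage markers, all with positive log2 fold changes, summed to 809, 828, 1360 and 1440 TPM in endostatin 1 to 4 and to 649, 963, 716 and 723 TPM in control 1 to 4, so they too were highest in endostatin 3 and 4; their part in the Nos1ap difference was not tested. In bulk tissue, more cells of a type and more RNA per cell cannot be told apart.

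**Figure D1:**
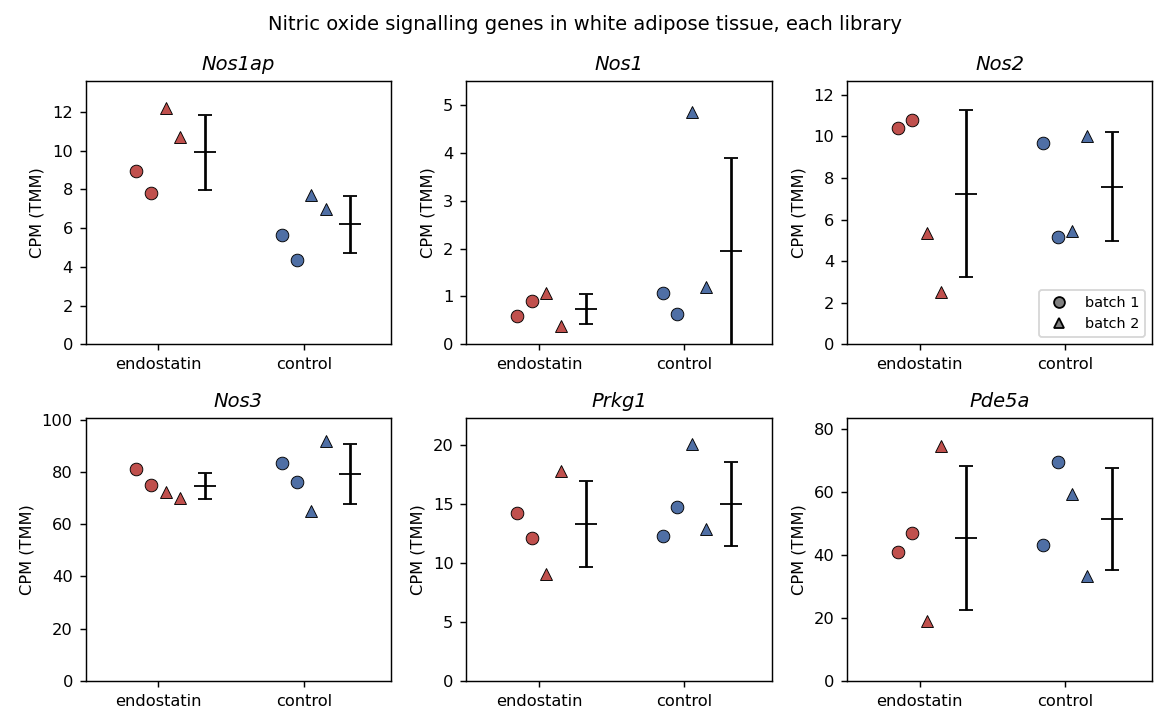
Level in CPM, normalised by trimmed mean of M values (TMM), of the 6 genes in each library, with endostatin on the left and control on the right of each panel; circles are batch 1, triangles batch 2, and bars the mean ± SD of 4 libraries. Nos1ap runs from 7.8 to 12.2 CPM in endostatin libraries against 4.37 to 7.73 CPM in control libraries, whereas the other 5 genes overlap between the groups.

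Most Nos1ap reads were not assigned to the full-length coding transcript. The gene model holds 9 transcripts. Nos1ap-202, with 10 exons and 3022 bases, is the one that encodes the full-length adaptor. Nos1ap-201, Nos1ap-206 and Nos1ap-207 share its upstream start region but end early, and Nos1ap-205, Nos1ap-208 and Nos1ap-209 cover only the 3′ part of the gene. Nos1ap-203 and Nos1ap-204 begin at other internal starts.

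The early-ending transcripts held the largest share of Nos1ap counts in 7 of 8 libraries. Their share was 54.9% ± 7.1 in endostatin libraries and 51.9% ± 10.3 in control libraries (SD, n = 4 each). The full-length transcript held 23.8%, 34.3%, 26.7% and 8.72% of the counts in endostatin 1 to 4, and 38.7%, 30.5%, 28.9% and 18.1% in control 1 to 4. It was lowest in endostatin 4 and highest in control 1, by 38.7% against 38.4% for the early-ending group there. Transcripts of the 3′ part held 18.6% ± 2.48 in endostatin libraries and 16.4% ± 4.3 in control libraries. The internal starts held 3.11% ± 1.43 in endostatin libraries and 2.73% ± 2.05 in control libraries. The shares of the 4 groups of transcripts overlapped between endostatin and control.

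In level, the full-length transcript overlapped between the groups, whereas the gene total in TMM-normalised CPM did not. Nos1ap-202 stood at 2.13, 2.68, 3.26 and 0.933 CPM in endostatin 1 to 4, against 2.19, 1.33, 2.23 and 1.27 CPM in control 1 to 4. These rest on 50.4, 59.6, 60.9 and 17.3 estimated counts in endostatin 1 to 4 and on 36.6, 23, 40.4 and 23.2 in control 1 to 4. Endostatin 4 was the lowest of all 8 libraries, although it had the second highest gene total. With Nos1ap counted from this transcript alone, an alternative added after the values had been seen, the log2 fold change was 0.35 ± 0.43, with a 95% interval from -0.63 to 1.34. The early-ending transcripts stood at 4.94, 3.64, 6.56 and 6.85 CPM in endostatin 1 to 4, against 2.17, 2.4, 3.95 and 4.4 CPM in control 1 to 4. They overlapped across batches but not within a batch. Transcripts of the 3′ part stood at 1.36 to 2.39 CPM in endostatin libraries and 0.542 to 1.43 CPM in control libraries.

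Among single transcripts, Nos1ap-207 and Nos1ap-205 made up much of the gene's signal. Nos1ap-207, a retained-intron transcript of 1607 bases, took 37.4% ± 5.26 of the counts in endostatin libraries and 37.6% ± 9.42 in control libraries. It has 0 exonic bases of its own, so the division of reads between it and its neighbours is an estimate from shared exons. Nos1ap-202 has 52 such bases, Nos1ap-205 has 171 and Nos1ap-203 has 516. Nos1ap-205, of 627 bases, took 14.9% ± 1.56 of the counts in endostatin libraries and 13.6% ± 1.73 in control libraries. Because TPM divides by length, the 3′ transcripts as a group made up 41.6% ± 0.819 of Nos1ap TPM in endostatin libraries and 41.6% ± 6.33 in control libraries. Nos1ap-202 made up 8.45% ± 3.97 in endostatin libraries and 11.7% ± 3.57 in control libraries. Nos1ap-206, a coding fragment of 780 bases, took 9.83% ± 2.57 of the counts in endostatin libraries and 5.54% ± 4.43 in control libraries, and had 0 counts in control 2. Nos1ap-201 took 7.75% ± 2.33 in endostatin libraries and 8.74% ± 4.35 in control libraries. Nos1ap-203, which begins at the internal window printed above, held 6.85, 1.71, 5.93 and 9.89 counts in endostatin 1 to 4 and 1.5, 1.55, 2.09 and 7.39 in control 1 to 4. These are too few to rank the libraries by. Nos1ap-208, of 781 bases at the 3′ end, held 2.67, 3.4, 6.18 and 2.44 counts in endostatin 1 to 4, against 1.11, 0, 5.14 and 0 in control 1 to 4.

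**Figure D2:**
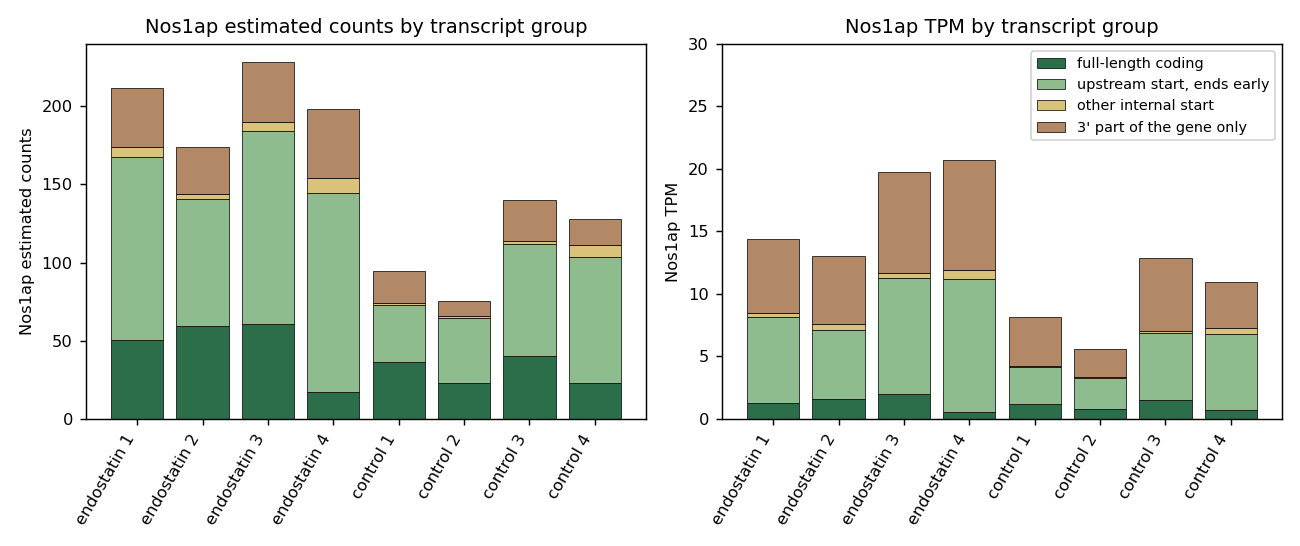
Nos1ap estimated counts (left) and TPM (right) in each library, stacked by transcript group, with endostatin libraries before control libraries. The full-length coding group is 17.3 to 60.9 counts in endostatin libraries and 23 to 40.4 in control libraries, and the 3′ group is a larger part of TPM than of counts.

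Nos1, the neuronal synthase and binding partner of the Nos1ap product, was the least abundant member and overlapped between the groups. It had 14, 20, 20 and 7 counts in endostatin 1 to 4, against 18, 11, 88 and 22 counts in control 1 to 4. In CPM these were 0.591, 0.897, 1.07 and 0.378 in endostatin 1 to 4, and 1.07, 0.64, 4.86 and 1.2 in control 1 to 4. Control 3 alone was above 1.2 CPM. All counts lay above the 3 counts that a count of 0 allows. Its log2 fold change was -1.16 ± 0.65, with an interval from -2.65 to 0.34. It was -0.43 without control 3, -0.73 without endostatin 4 and -0.19 without both control 3 and endostatin 4. Control 3 also had the highest sum of oviduct and uterus markers, with Msx1 at 162 TPM and Pgr at 97.2 TPM. Nos1 was lowest in endostatin 4, which had the second highest sum. The 2 libraries differed in these markers. In endostatin 4 the sum came mostly from Ltf (298 TPM) and Epcam (32.4 TPM), with Msx1 at 11.6 TPM and Pgr at 5.08 TPM. The part of those markers in the Nos1 values was not tested. The 8 markers of skeletal muscle, a tissue that expresses Nos1, summed to 44.4 to 105 TPM in endostatin libraries and to 218, 33.5, 42.4 and 424 TPM in control 1 to 4; their part in the Nos1 values was not tested. The 7 neuron markers summed to 6.21 to 12.3 TPM in endostatin libraries and 5.22 to 8.74 TPM in control libraries, with 8.34 TPM in control 3. Most of each sum was Uchl1. Of the others, all low, Rbfox3 was highest in control 3 (0.81 TPM), Elavl4 in control 2 (1.17 TPM) and Prph in endostatin 3 (2.04 TPM). The part of the neuron markers in the Nos1 values was not tested. Nearly all Nos1 counts went to Nos1-206, the transcript of 10123 bases, which took 100% in endostatin libraries and 98.5% to 100% in control libraries.

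Nos2, the synthase that macrophages and other cells induce in inflammation, lay on opposite sides of control in the 2 batches. It stood at 10.4, 10.8, 5.33 and 2.49 CPM in endostatin 1 to 4, against 9.69, 5.18, 5.46 and 10 CPM in control 1 to 4. Both endostatin libraries were below both control libraries in batch 2 and above both in batch 1. The log2 fold change was -0.98 ± 0.49 in batch 2 and 0.51 ± 0.48 in batch 1. The difference between these, batch 2 minus batch 1, was -1.5 with an interval from -3.12 to 0.12 (edgeR interaction test, adjusted p = 0.997; unadjusted p = 0.0652). That interaction was called for 0% of genes tested by edgeR, and 527 genes (3.47%) had an unadjusted p under 0.05; no other tool was run on it. Over both batches the log2 fold change was -0.22 ± 0.42. It was 0.11 without control 4 and also 0.11 without endostatin 4. The macrophage marker sum was highest in endostatin 4 (1440 TPM), where Nos2 was lowest.

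Nos2 counts were divided between 2 coding transcripts. Nos2-203, which begins 4416 bases downstream of Nos2-201, took 65.2% to 87.7% of the counts in endostatin libraries and 45.5% to 82.5% in control libraries. Nos2-201 held 86, 69.2, 24.7 and 4.47 counts in endostatin 1 to 4, against 60.4, 14.5, 54 and 87.2 counts in control 1 to 4. Its lowest value, like that of the gene, was in endostatin 4.

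Nos3, the endothelial synthase that keeps blood vessels relaxed, varied least among the members. It stood at 81.2, 75.2, 72.2 and 70 CPM in endostatin 1 to 4, against 83.6, 76.1, 65.1 and 92 CPM in control 1 to 4. All endostatin libraries lay inside the range of the control libraries. The means were 74.6 ± 4.88 CPM in endostatin libraries and 79.2 ± 11.5 CPM in control libraries, a log2 fold change of -0.09 ± 0.11 with an interval from -0.35 to 0.18. In TPM, Nos3 was between 31.5 and 34.9 in endostatin libraries and between 31.1 and 37.7 in control libraries. The 8 endothelial markers summed to 368 to 411 TPM in endostatin libraries and 316 to 395 TPM in control libraries. Nos3-201 took 99% to 100% of the Nos3 counts in endostatin libraries and 98.9% to 100% in control libraries.

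Prkg1, the main cyclic GMP-dependent kinase of smooth muscle, overlapped between the groups. It stood at 14.2, 12.1, 9.06 and 17.8 CPM in endostatin 1 to 4, against 12.3, 14.7, 20.1 and 12.9 CPM in control 1 to 4. It was highest in endostatin 4 within the endostatin group and in control 3 within the control group. Its log2 fold change was -0.17 ± 0.24, with an interval from -0.72 to 0.38. The 10 smooth muscle and pericyte markers, of which Tagln and Acta2 gave the most, summed to 989, 1200, 1080 and 2510 TPM in endostatin 1 to 4 and to 894, 1290, 1650 and 1270 TPM in control 1 to 4. Endostatin 4 and control 3 were thus the highest of their groups in this sum too. Control 3 was the highest control library for each of the 10 markers. Endostatin 4 was not: it was the lowest endostatin library for Rgs5 (48 TPM against 81 to 87.4 TPM) and Notch3 (20.8 against 29 to 32.9 TPM). For Kcnj8 it was just below endostatin 2 (10.8 against 11 TPM), and for the other markers it was the highest. The part of the markers in the Prkg1 values was not tested.

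The 2 main Prkg1 transcripts, which begin at the windows printed above, kept similar shares of the counts. Prkg1-201 took 57.6% ± 4.34 in endostatin libraries and 57.9% ± 7.09 in control libraries. Prkg1-202 took 38.2% ± 2.64 in endostatin libraries and 37.6% ± 7.16 in control libraries. The mean shares of each transcript differed between the groups by less than the SD.

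Pde5a, the phosphodiesterase that degrades cyclic GMP and is the target of sildenafil, had a wide range within each group. It stood at 40.9, 47.1, 18.9 and 74.6 CPM in endostatin 1 to 4, against 43.2, 69.5, 59.2 and 33.3 CPM in control 1 to 4. Endostatin 3 was the lowest of the 8 libraries and endostatin 4 the highest, so the endostatin group spanned the control group. The log2 fold change was -0.17 ± 0.4, with an interval from -1.1 to 0.76, and it was -0.71 without endostatin 4 and 0.07 without endostatin 3. Pde5a-201 took 49.8% to 62.3% of the counts in endostatin libraries and 38.9% to 67% in control libraries. Pde5a-204 took 36.1% to 49.8% in endostatin libraries and 31% to 59.2% in control libraries. The short Pde5a-203 took 14.9 counts in control 4 but 6.57 of the 14.3 TPM there, so the Pde5a TPM of that library rests in large part on few reads. In endostatin libraries its highest value was 6.87 counts, in endostatin 2.

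**Figure D3:**
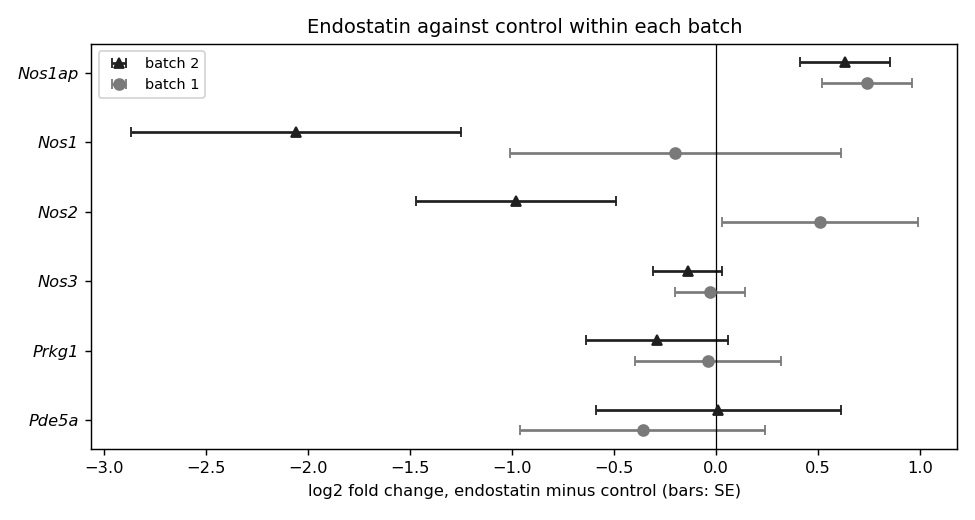
Log2 fold change of each gene, endostatin minus control, within batch 2 (triangles) and batch 1 (circles), with bars of 1 SE. Nos1ap has 0.63 in batch 2 and 0.74 in batch 1, whereas Nos2 has -0.98 in batch 2 and 0.51 in batch 1.

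Across the members, 4 of 6 had the same sign of the endostatin difference in both batches, over a background of 47.7% of all genes tested. Nos1ap had log2 fold changes of 0.63 ± 0.22 in batch 2 and 0.74 ± 0.22 in batch 1. Nos1 had -2.06 ± 0.81 in batch 2, which holds control 3, and -0.2 ± 0.81 in batch 1. Nos3 had -0.14 ± 0.17 in batch 2 and -0.03 ± 0.17 in batch 1. Prkg1 had -0.29 ± 0.35 in batch 2 and -0.04 ± 0.36 in batch 1. Pde5a had 0.01 ± 0.6 in batch 2 and -0.36 ± 0.6 in batch 1. The differences between batches, tested with the interaction term of edgeR's quasi-likelihood test, had an adjusted p of 0.997 for all 6. Nos1ap was chosen for its difference over both batches together, which favours like values in the 2 batches. Nothing is therefore read from its interaction result or from its shared sign.

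Per length, the order of the members was Nos3 first and Nos1 last in both groups. Mean TPM was 32.4 ± 1.68 in endostatin libraries and 33.4 ± 2.97 in control libraries for Nos3. Pde5a had 12 ± 5.93 TPM in endostatin libraries and 14.2 ± 3.27 TPM in control libraries. Nos1ap, with 17 ± 3.83 TPM in endostatin libraries and 9.39 ± 3.2 TPM in control libraries, stood above Pde5a in the endostatin means and below it in the control means, with ranges that overlapped in both groups. Prkg1 had 6.03 ± 1.34 TPM in endostatin libraries and 6.78 ± 2.21 TPM in control libraries. Nos2 had 3.69 ± 1.77 TPM in endostatin libraries and 3.67 ± 1 TPM in control libraries. Nos1 had 0.125 ± 0.0516 TPM in endostatin libraries and 0.416 ± 0.525 TPM in control libraries. Counted as Nos1ap-202 alone, Nos1ap was at 0.586 to 1.98 TPM in endostatin libraries and 0.725 to 1.53 TPM in control libraries, below the lowest Prkg1 value of 4.47 TPM. Neighbours in this order overlapped between Nos1ap, Pde5a and Prkg1, and in endostatin libraries also between Prkg1 and Nos2. Nos3 lay above all values of the others, and Nos1 below those of Nos2, in both groups.

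The choice of members did not use the difference between the batches, but that difference comes from the same fit that ranked Nos1ap. A gene ranked by a small p tends to have a small SE, and for Nos1ap the SE was 0.15 in both comparisons. In batch 2, Nos1ap averaged 9.4 ± 2.44 CPM, against 6.69 ± 2.07 CPM in batch 1 (SD, n = 4 each), and both the endostatin and the control libraries of batch 2 were above those of batch 1. The log2 fold change, batch 2 minus batch 1, was 0.5 with an interval from 0.16 to 0.84. It did not pass the threshold over all genes (edgeR, adjusted p = 0.482, unadjusted p = 0.00937). By the same test, 1513 of 15184 genes had an unadjusted p under 0.05 between batches. The other 5 did not pass either, with adjusted p from 0.592 for Nos2 to 0.945 for Pde5a. Nos2 had a batch log2 fold change of -0.69 (-1.67 to 0.3) and Nos1 one of 0.92 (-0.57 to 2.42). The intervals for Nos3 (-0.35 to 0.18), Prkg1 (-0.39 to 0.71) and Pde5a (-1.03 to 0.83) also held 0. None of the 6 was called, against a background of 0.0395% of genes called between batches, 0.00659% higher and 0.0329% lower in batch 2.

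Rasd1, the G protein that the Nos1ap adaptor links to the neuronal synthase and that glucocorticoids induce, was 1 of the 6 genes called between batches. It stood at 41.3 and 37.1 CPM in endostatin libraries and 28.2 and 39.1 CPM in control libraries of batch 2, against 123 and 128 CPM in endostatin libraries and 115 and 101 CPM in control libraries of batch 1. All 4 libraries of batch 2 were below all 4 of batch 1. In the batch term it had -1.68 on the log2 scale (edgeR, adjusted p = 0.00902). The call was lost without control 1, control 2, endostatin 2 or endostatin 3 (adjusted p = 0.0578, 0.0781, 0.132 and 0.0722; log2 fold changes -1.64, -1.72, -1.67 and -1.71). Between endostatin and control, Rasd1 had a log2 fold change of 0.22 ± 0.11. What else differed between the batches is not given in the sources used here.

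A list of 60 further genes of the pathway, grouped by role, held 55 that passed the count filter. None of the 55 passed edgeR's test between endostatin and control, over a background of 0% called among 15184 genes, and DESeq2 and limma-voom also called none of them. By unadjusted p under 0.05 there were 3 of 55 (5.45%), against 485 genes or 3.19% of all tested. Over all genes DESeq2 called 4 and limma-voom 0. The log2 fold change was positive for 31 and negative for 24, with a median of 0.01, against -0.01 over all genes. Over all 15184 genes it was positive for 7077 and negative for 8107. The sign was the same in both batches for 20 of the 55, against 47.7% of all genes tested. Both within-batch medians, 0.05 in batch 2 and 0.07 in batch 1, were also near 0.

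Genes that supply arginine and tetrahydrobiopterin, the substrate and cofactor of the synthases, included all 3 with an unadjusted p under 0.05, and 8 of 12 were positive. Gch1, the rate-limiting enzyme of tetrahydrobiopterin synthesis, stood at 3.88, 4.8, 4.69 and 7.57 CPM in endostatin 1 to 4, against 3.03, 3.61, 3.09 and 3.12 CPM in control 1 to 4. The groups did not overlap, with a log2 fold change of 0.68 ± 0.24 (edgeR, adjusted p = 1). Groups of 4 that did not overlap were found for 0.942% of all genes tested with endostatin higher, and for 1.64% in either direction. Gch1 was named for its small p in this comparison, so nothing is read from its being among them. Ddah1, which breaks down a natural inhibitor of the synthases, stood at 4.94, 4.49, 5.01 and 5.41 CPM in endostatin 1 to 4, against 2.67, 2.91, 4.75 and 3.39 CPM in control 1 to 4. Only control 3 reached the endostatin range, and the log2 fold change was 0.55 ± 0.2 (edgeR, adjusted p = 1). Ass1, which makes the arginine precursor argininosuccinate and is named after its values were seen, had a log2 fold change of 1.6 ± 0.59. It stood at 11.4, 20.5, 3.89 and 28.9 CPM in endostatin 1 to 4, against 8.2, 7.22, 4.64 and 2.63 CPM in control 1 to 4. In the endostatin group Ass1 followed the order of the hepatocyte marker sums of 266, 396, 20.9 and 754 TPM; their part in its difference was not tested. Arg1, the liver form of arginase, also named after its values were seen, had 3.37 ± 1.57, with 52.8 CPM in endostatin 4 against 0.533 to 4.8 CPM in the other endostatin libraries and 0.331 to 1.84 CPM in control libraries. Within each group Arg1 too followed the order of the hepatocyte marker sums, and their part in its difference was not tested. Among negative values, Pts, a synthesis enzyme of the cofactor, had -0.07 ± 0.11. Gchfr and Arg2 did not pass the count filter.

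Adaptors and regulators of the synthases were balanced, with 7 of 14 positive and a median of -0.02. Calm3, one of the calmodulin genes whose product activates the synthases, had a log2 fold change of 0.11 ± 0.1. Scrib, a polarity scaffold, had -0.08 ± 0.09, and the chaperone Hsp90aa1 had -0.1 ± 0.13. Cav3 did not pass the count filter. None of these passed the test.

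Of the guanylate cyclases and natriuretic peptide receptors, 5 of 6 were positive, with a median of 0.1, but only 1 of the 6 had the same sign in both batches. Npr1, a membrane cyclase that responds to atrial natriuretic peptide, had 128 ± 28.5 CPM in endostatin libraries and 110 ± 10.5 CPM in control libraries, a log2 fold change of 0.21 ± 0.15. Npr3, the clearance receptor for these peptides, had 1130, 1190, 1320 and 254 CPM in endostatin 1 to 4, against 880, 495, 426 and 886 CPM in control 1 to 4, with endostatin 4 the lowest of all. Its log2 fold change was 0.51 ± 0.49. Npr2 had -0.01 ± 0.12. Gucy1b2 had 2 counts in all 8 libraries together and did not pass the filter.

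Among Prkg2 and substrates of the kinase, 2 of 8 were positive, with a median of -0.02. Pln, a regulator of the calcium pump, had 0.32 ± 0.31. Rgs2, a brake on G protein signalling, had 0 ± 0.5 with 83.3 CPM in endostatin 4 against 16.2 to 26.6 CPM in the other endostatin libraries and 18.8 to 44.4 CPM in control libraries. Kcnma1, a calcium-activated potassium channel of smooth muscle, had -0.39 ± 0.31 and Irag1, a partner of the kinase at calcium stores, had -0.11 ± 0.25.

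Genes listed under other cyclic GMP phosphodiesterases, a list by family name that also holds Pde6d, were positive in 7 of 9, with a median of 0.03. Pde2a, which cyclic GMP itself activates, had 76.4 ± 32.7 CPM in endostatin libraries and 51.1 ± 24.5 CPM in control libraries, a log2 fold change of 0.58 ± 0.44. Pde1b had 0.31 ± 0.25 and Pde1a had -0.09 ± 0.2. Pde11a did not pass the filter. Of 6 genes that remove nitric oxide or nitrosothiols, 2 were positive: Cygb (cytoglobin) with 0.23 ± 0.12 and Txnrd1 (thioredoxin reductase) with 0.01 ± 0.09. Cyb5r3, a reductase of haem proteins, had -0.16 ± 0.11. Mb (myoglobin) had -2.72 ± 1.51. It stood at 2.03, 0.897, 0.16 and 0.216 CPM in endostatin 1 to 4, against 5.47, 0.233, 0.221 and 12.8 CPM in control 1 to 4. Control 1 and control 4, which also had the highest skeletal muscle marker sums, lay above the endostatin range, and control 2 and control 3 lay within it; the part of those markers in the Mb values was not tested.

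**Figure D4:**
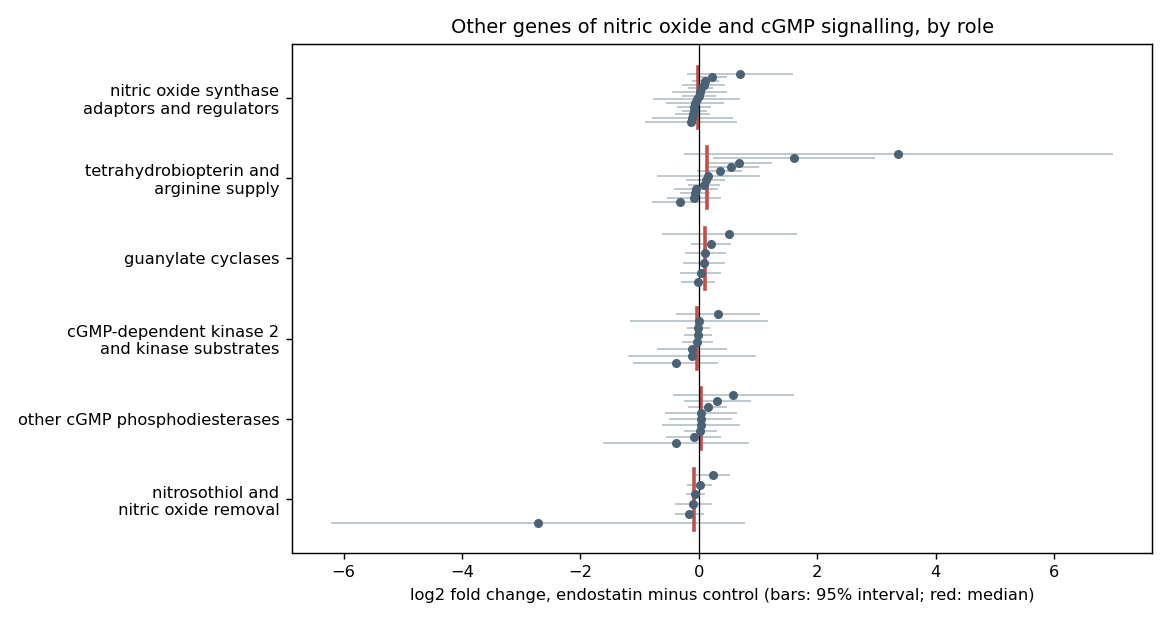
Log2 fold change, endostatin minus control, of the 55 tested pathway genes by role; points are genes, bars 95% intervals and red lines the medians of each role, which run from -0.08 to 0.14. Wide bars at the right and left belong to Arg1 (3.37) and Mb (-2.72).

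The genes whose levels followed Nos1ap most closely over the 8 libraries were Gm7694 (Pearson r = 0.97), Stk24 (0.96), Gpr153 (0.96), Stt3a (0.95) and Egfr (0.95), among 11338 protein-coding genes averaging 5 CPM or more. These values are descriptions over 8 libraries that share the same groups and batches. With group and batch means removed, r was 0.65 for Gm7694, 0.86 for Stk24, 0.82 for Gpr153, 0.47 for Stt3a and 0.7 for Egfr. Gm7694 also had the smallest unadjusted p among the higher genes, with 12.1, 13, 18.6 and 15.5 CPM in endostatin 1 to 4, against 7.67, 6.81, 11 and 9.57 CPM in control 1 to 4. Over the 8 libraries, the other members had r with Nos1ap of -0.08 for Nos1, -0.31 for Nos2, -0.35 for Nos3, -0.17 for Prkg1 and -0.44 for Pde5a. With group and batch means removed, these were 0.58 for Nos1, 0.51 for Nos2, 0.08 for Nos3, -0.17 for Prkg1 and -0.49 for Pde5a, so the sign turned for Nos1, Nos2 and Nos3.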

How the data were processed

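Directional libraries were prepared from total RNA after removal of rRNA, per the labels' protocols. The authors deposited estimated counts and TPM per transcript from Salmon for build GRCm39, per the submitters' processing notes; its version and index: not given in the sources used here. Of 115620 transcripts, 113710 (98.35%) matched GENCODE M21 (GRCm38), used for names and exon structure; the other 1910, which could include transcripts of the members, were kept apart. Counts were summed per gene and rounded. filterByExpr left 15184 genes, fitted in edgeR 4.0.16 (R 4.3.3, TMM, quasi-likelihood, batch and treatment, two-sided, Benjamini-Hochberg, threshold 0.05). The fit was also run on counts simulated with the same spread for every gene and no batch effect. That run does not cover libraries that stand apart, as some do here. CPM used TMM factors. Intervals cover 95%.

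The members and gene lists were chosen with earlier results of these data known. Every member was named, with its Nos1ap transcripts of at least 5% of TPM in any library and the 5 genes of highest correlation with Nos1ap; per role and direction, up to 2 pathway genes with the smallest p were named if they averaged 1 CPM or more, besides those below the filter. A gene named by this rule is not reported here. Depth allows 0.126 to 0.19 CPM at a count of 0, for counting error only. Alternatives used DESeq2 1.42.0 and limma-voom (limma 3.58.1), other scalings, filters, models and left-out libraries. Replicate numbers did not pair the libraries. No sequence of the proteins was used here.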

Additional observations from a re-analysis of the deposited data

Results flagged for a closer look

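Of 24 groups of 4 libraries examined for an outlying library (the CPM of each member and the count shares of the main Nos1ap transcripts), 2 held one; chance alone gives about 1 in 20. Nos1 stood at 4.86 CPM in control 3, against 0.64 to 1.2 CPM in the other control libraries. Nos1ap-203 took 5.78% of the Nos1ap counts in control 4, against 1.49% to 2.05% in the other control libraries, from 7.39 counts.

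Nos2 is listed because its 2 endostatin libraries lay below both control libraries in batch 2 and above both in batch 1. The share of all genes with that pattern was not counted. The difference of the log2 fold changes, batch 2 minus batch 1, was -1.5 and did not pass (edgeR interaction test, adjusted p = 0.997).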

How the results depend on the processing

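Nos1ap had a positive log2 fold change in all 19 alternatives, from 0.61 to 0.75 when 1 library was left out and up to 0.84 with transcript length offsets; from the full-length transcript alone, chosen after seeing the data, it was 0.35, where fewer reads are counted. The replicate block gave 0.69 for Nos1ap and called 0 genes, and changed no other call; same-numbered libraries had correlations of their deviations from group means of -0.29 to 0.21, so the numbers were not taken as pairs, and 2 of 8 libraries correlated best with their own number. It gave 307 genes with an unadjusted p under 0.05, against 485. Nos1 was -0.19 without both control 3 and endostatin 4, and Nos3 was 0.09 without both control 1 and control 4. With 1 library left out, Nos1 ran from -1.49 to -0.43, Nos2 from -0.55 to 0.11, Nos3 from -0.18 to 0.03, Prkg1 from -0.36 to 0.02 and Pde5a from -0.71 to 0.07. The pathway list had 27 to 34 positive members. The difference in the TPM share of Nos1ap-202, endostatin minus control, was -3.25 percentage points, -5.67 as a share of counts, and -4.94 to -1.37 with 1 library left out. DESeq2 called 4 genes for endostatin.

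Between batches, edgeR called 6 genes, against 2 with library size only, 171 with DESeq2, 10 with limma-voom, 11 with no filter, 27 without both control 3 and endostatin 4, 0 without both control 1 and control 4, and 0 to 18 with 1 library left out. Batch differences that turned sign, none of them called, were Nos3 (0.02 with library size only, 0.06 without both control 3 and endostatin 4, and -0.2 to 0 with 1 library left out), Pde5a (0.04 with library size only; -0.64 to 0.15) and Prkg1 (-0.28 without both control 3 and endostatin 4; -0.03 to 0.35). The cause was not tested. Low counts limit the precision for Nos1 and the Nos1ap transcripts.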
